A study of Mus musculus with 6 samples.

Results

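The replication-dependent histone genes were taken as every gene whose name on the array began with Hist1h, Hist2h, Hist3h or Hist4h. This gave 34 genes with 44 probes, of 27962 gene names and 41174 probes on the array. Each gene was read from its brightest probe, and 31 of the 34 passed the filter on dim probes, among 19479 genes that passed it on the whole array. They comprised 6 linker histone H1 genes, 9 of 11 H2A genes, 7 of 8 H2B genes, 3 H3 genes and 6 H4 genes. By cluster, 22 of 24 genes of Hist1 on chromosome 13, 5 of 6 of Hist2 on chromosome 3, 3 of 3 of Hist3 on chromosome 11 and the 1 gene of Hist4 on chromosome 6 passed.

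The cells were J1, a mouse embryonic stem cell line, grown in ESGRO medium and transfected in M10 medium. They were transfected with siRNA against Thoc2, siRNA against Thoc5 or, as the control, non-targeting siRNA (NT), and total RNA was taken 96 hours later and read on 2 single-colour (Cy3) Agilent arrays per group. Thoc2 and Thoc5 are subunits of THO, a complex that binds nascent mRNA and, as a part of TREX, helps pass it to the export receptor Nxf1. The labels do not say whether the arrays of a group came from separate cultures, so p-values measure the spread between these arrays, which may be technical. Total RNA holds nuclear and cytoplasmic RNA together, so the arrays give the level of an mRNA and not its export.

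Cells make the bulk of their histones while DNA is copied. The replication-dependent genes that supply them lie in clusters, have no introns, and give mRNAs that end in a conserved stem-loop in place of a poly(A) tail. The stem-loop is bound by Slbp, and a machinery built around the U7 small nuclear ribonucleoprotein cuts the transcript just after it; the mature mRNA leaves the nucleus through Nxf1 without having been spliced. Core histones H2A, H2B, H3 and H4 form the nucleosome, and H1 binds the linker DNA between nucleosomes. Per the labels' protocols, RNA was labelled with a Low Input Quick Amp kit; such kits copy RNA from its poly(A) tail, and how much of each histone mRNA carried one was not measured here.

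The stem-loop itself was on 3 probes. The histone probes were searched for a stem of 6 letters, a TTTC loop and the complementary stem, which gave 1 sequence, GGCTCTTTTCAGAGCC. This sequence, whole or cut off by the end of a probe with at least 10 letters left, was on the sense strand of 3 of 41174 probes (0.00729%) and on the antisense strand of 0. All 3 belonged to histone genes, and the stretches are shown because they place the probes relative to the site where the transcript is cut; capitals mark the letters of the stem-loop. The Hist1h2ab probe holds 49 letters before the stem-loop and 0 after what it has of it, and the Hist1h3a probe 41 before and 3 after. The Hist1h2ae probe begins within the stem-loop, and 48 of its 60 letters lie 3′ of it, mostly beyond the end of an mRNA cut just after the stem-loop. The looser pattern GGNNNTTTTCANNNCC, which contains the first and was counted only where whole, matched 5 probes in sense (0.0121%) and 1 in antisense (0.00243%). By gene name, 1 of the 5 was among the histone genes taken here (Hist1h3a). Whether the others read histone transcripts under other names was not tested.
Hist1h2ab: aacaaaGGCTCTTTTCA
Hist1h2ae: CTTTTCAGAGCCattcac
Hist1h3a: accaaaGGCTCTTTTCAGAGCCaca

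Many of the other probes could not separate one histone gene from another. Of the 31 genes, 12 had a probe that the array design itself lists for more than 1 RefSeq transcript. The coding regions of the H2B genes show this: the probes of Hist1h2bk (chr13:21402048-21402107, plus strand, mouse build mm7), Hist1h2bm (chr13:21088259-21088318, plus strand) and Hist3h2bb (chr11:59035740-59035799, minus strand) cover the same part of the protein. Those of Hist1h2bk and Hist1h2bm were identical at 58 of 60 positions, and those of Hist1h2bk and Hist3h2bb at 55 of 58 shared positions. Capitals mark the bases that differ from the Hist1h2bk probe.
Hist1h2bk: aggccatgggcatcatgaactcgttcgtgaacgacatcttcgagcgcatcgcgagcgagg
Hist1h2bm: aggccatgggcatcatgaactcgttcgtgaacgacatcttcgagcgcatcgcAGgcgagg
Hist3h2bb: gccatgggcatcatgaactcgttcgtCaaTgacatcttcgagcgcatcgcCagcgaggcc

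The Hist1h2ba probe was identical to that of Hist1h2bk at 35 of 40 shared positions. Whether these 4 probes bound each other's transcripts was not tested, so their values may not be independent. The probes of Hist1h2bc, Hist2h2be and Hist3h2ba each listed 1 RefSeq transcript and had no near-identical partner among the histone probes. RefSeq assigns the transcript of the Hist3h2ba probe and the transcripts matched for the Hist3h2bb probe to the same current gene, H2bu2, although the array names them apart and places them at different positions.

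The brightest H2A probe was that of Hist1h2aa. Hist1h2aa is known as a testis H2A gene, yet its probe was bright in these cells. Whether that probe bound transcripts of other H2A genes was not tested. The Hist1h2aa probe (chr13:23300592-23300651, plus strand) lists 1 transcript. It matched the probe of the somatic gene Hist1h2af (chr13:22900228-22900287, plus strand) except at 13 of 60 bases, shown in capitals.
Hist1h2af: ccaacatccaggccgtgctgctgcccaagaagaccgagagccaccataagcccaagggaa
Hist1h2aa: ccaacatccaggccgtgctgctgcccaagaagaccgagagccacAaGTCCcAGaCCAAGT

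Among H4 genes, the probe of Hist1h4f (chr13:22917373-22917432, minus strand), shown as the example of a sequence that several H4 genes share, was identical to that of Hist1h4d at all 50 shared positions.
Hist1h4f: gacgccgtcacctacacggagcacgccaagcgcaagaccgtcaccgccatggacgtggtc

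The arrays were of uneven quality. Between 56.7% and 79.7% of 43379 spots per array were well above background. Thoc2 replicate 1 had the highest share and 880 spots with an outlier flag, against 63 to 155 on the others, and Thoc5 replicate 1 had the lowest share and a signal at the 75th percentile of 306, against 716 to 905. Correlations of all levels were 0.964 to 0.976 between arrays of a group and 0.954 to 0.974 between groups. Thoc2 mRNA was at 55.0% of NT after Thoc2 knockdown (limma adjusted p = 0.304) and Thoc5 mRNA at 41.4% after Thoc5 knockdown (adjusted p = 0.13). Of the embryonic stem cell markers, 8 of 8 were well above background on every array, and 8 of 8 were lower in each knockdown than in NT. Of 7 fibroblast markers, 5 were tested and 3 were above background on every array. Summed over the 5, their level was 1.54 to 2.02 times the 75th percentile of the array in NT cells. The sum was 0.751 to 1.07 after Thoc2 knockdown and 0.663 to 0.734 after Thoc5 knockdown. Thy1, the brightest of them in NT cells, was at 33.9% and 24.9% of NT. After Thoc2 knockdown 3 of 5 were below NT, while Postn was at 167.2% and Dcn at 208.7%. After Thoc5 knockdown 5 of 5 were below NT. Under another background correction (normexp) 1 of 5 was below NT in each comparison. The part of the cells behind those markers in the histone values was not tested, and fewer cells of a type cannot be told apart from less RNA per cell.

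Levels below are log2 signal minus the 75th percentile of the same array, and differences are on the log2 scale with the standard error (SE) of a limma fit to all 6 arrays. Levels of different probes are not comparable. A gene counted as called at an adjusted p under 0.05 over all 19479 genes. In each of the 3 comparisons 0 genes were called (0%), so no histone gene passed the test; with 2 arrays against 2, the smallest p an exact permutation test allows is 0.333. Counts at an unadjusted p under 0.05 are read against the share of all genes that reached it, 14.5% for Thoc2 siRNA and 19.4% for Thoc5 siRNA against NT.

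After Thoc2 knockdown the histone genes were mostly at lower levels than with NT, and the H2B genes most of all. Of 31 genes, 25 had a log2 difference below 0 (80.6%), against 44.3% of all genes, and the median was -0.36, against 0.06 over all genes. Probes of some H2A, H2B and H4 genes resemble each other closely. The histone counts here and below may therefore not be of independent genes. At an unadjusted p under 0.05, 8 of 31 (25.8%) differed, all of them lower, where 14.5% of all genes differed, 6.5% lower and 8.03% higher. The smallest adjusted p was 0.211. The 2 groups did not overlap for 18 histone genes, 15 lower and 3 higher, where 20.6% and 25.6% of all genes did so.

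After Thoc5 knockdown the tilt was smaller and went both ways. Of 31 genes, 22 were below 0 (71%), against 56.8% of all genes, with a median of -0.22, against -0.09. At an unadjusted p under 0.05, 5 of 31 (16.1%) differed, 3 lower and 2 higher, where 19.4% of all genes differed, 12% lower and 7.39% higher. That share is near the background. The smallest adjusted p was 0.101, and the groups did not overlap for 14 lower and 3 higher genes, where 31.1% and 21.6% of all genes did so. Both comparisons use the same NT arrays.

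**Figure D1:**
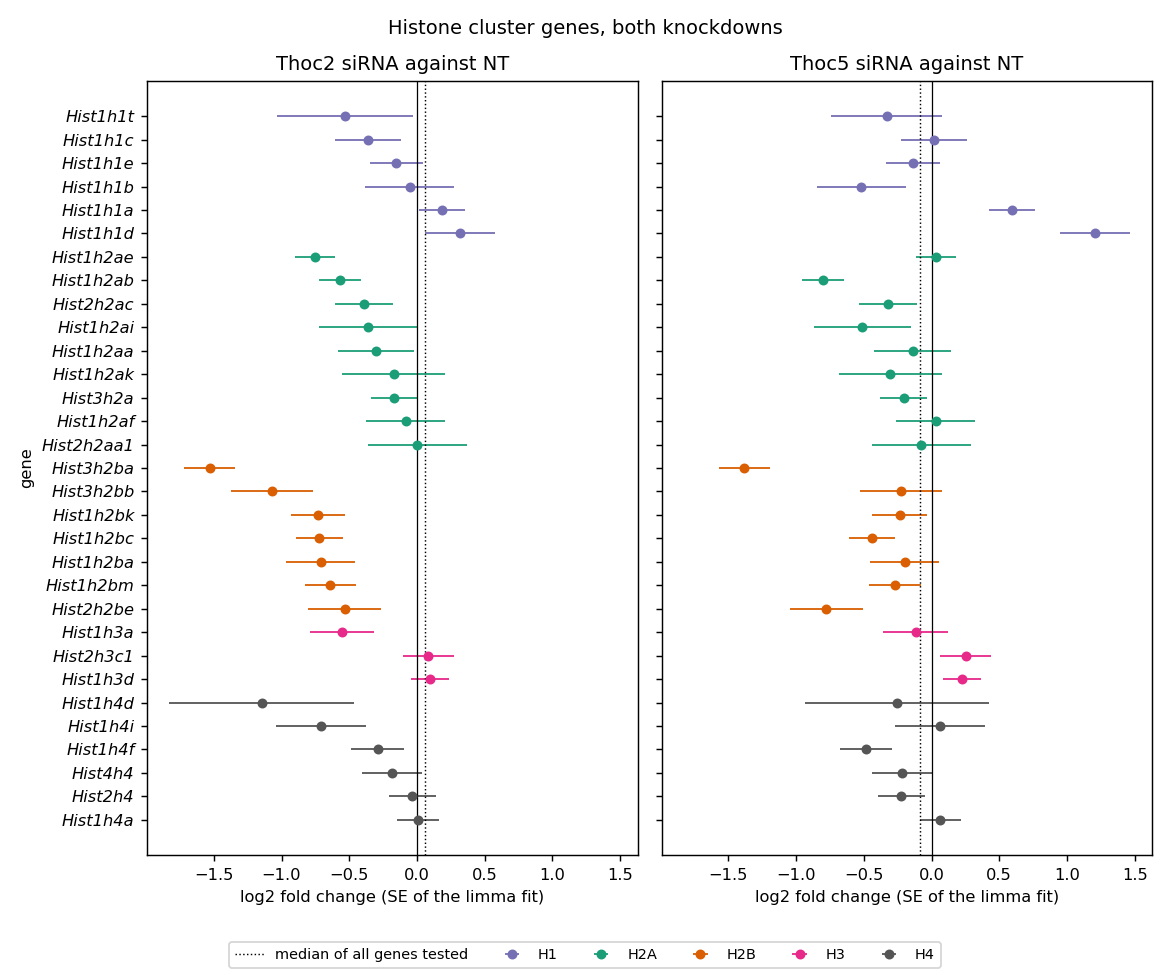
Log2 difference from NT of each of the 31 histone genes (points; bars, SE from the limma fit, 2 arrays a group) after Thoc2 knockdown on the left and Thoc5 siRNA on the right, coloured by histone class; the dotted line is the median of all genes tested. All 7 H2B genes lie left of 0 in both panels, from -1.53 to -0.53 after Thoc2 knockdown, although Hist2h2be turned to 0.59 and 0.33 under another background correction (normexp).

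H2B genes, which encode the histone that pairs with H2A, had lower levels on their brightest probes in both knockdowns, except Hist2h2be under normexp. A second, dimmer Hist1h2bk probe was at 0.17 after Thoc5 knockdown, where its groups overlapped. After Thoc2 knockdown 7 of 7 were below 0, with a median of -0.72 and a range of -1.53 to -0.53, the groups did not overlap for any of the 7 (20.6% of all genes were lower without overlap), and 6 had an unadjusted p under 0.05 (85.7%, against 14.5% of all genes). The 6 included Hist1h2bk, Hist1h2bm, Hist1h2ba and Hist3h2bb, whose probes were identical to each other at 84.2% to 96.7% of shared positions. They also included Hist3h2ba, assigned to the same current gene as Hist3h2bb. These counts may therefore not be of independent genes. After Thoc5 knockdown 7 of 7 were below 0, with a median of -0.27, against -0.09 over all genes; the groups did not overlap for 6, where 31.1% of all genes were lower without overlap. Of the 7, 2 had an unadjusted p under 0.05 (28.6%, against 19.4% of all genes). Under normexp background correction Hist2h2be was the exception in both comparisons, at 0.59 and 0.33. The median of the class stayed below 0 under every setting run. Relative to the median of all genes, the Thoc5 median of the class was -0.18 as scaled here. That value ran from -0.79 under normexp to -0.08 without Thoc5 replicate 2. Without Thoc2 replicate 1 the Thoc2 median was -0.56 and 3 genes had an unadjusted p under 0.05. That count was 3 without NT replicate 1 and 2 without NT replicate 2.

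Hist3h2ba (chr11:59030991-59031050, plus strand) had the smallest p of the histone genes in both comparisons with NT. Its level was 1.13 and 1.01 on the NT arrays, -0.49 and -0.43 after Thoc2 knockdown, and -0.50 and -0.12 after Thoc5 knockdown. All 4 knockdown arrays were below both NT arrays, and the knockdowns overlapped each other. The level was 34.6% of NT after Thoc2 knockdown (-1.53 ± 0.19, limma unadjusted p = 0.000735, adjusted p = 0.211) and 38.4% after Thoc5 knockdown (-1.38 ± 0.19, unadjusted p = 0.00113, adjusted p = 0.101). The second of these passed the threshold in a fit restricted to genes above background on all arrays (adjusted p = 0.0392) and in a fit with an intensity trend and robust variances (adjusted p = 0.0253). The differences held on the shared slides, at -1.56 for Thoc2 and -1.13 for Thoc5.

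Hist1h2bc, whose probe also lists a single transcript, had levels of 0.59 and 0.80 in NT cells, 0.03 and -0.08 after Thoc2 knockdown, and 0.13 and 0.38 after Thoc5 knockdown. NT was highest, Thoc5 siRNA intermediate and Thoc2 siRNA lowest, with no overlap between groups. It was at 60.7% of NT after Thoc2 knockdown (-0.72 ± 0.17, limma unadjusted p = 0.0109) and at 73.8% after Thoc5 knockdown (-0.44 ± 0.17, unadjusted p = 0.0569).

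Hist2h2be, the H2B gene of the Hist2 cluster and the dimmest H2B probe, read -3.05 and -3.06 in NT cells, -3.94 and -3.24 after Thoc2 knockdown, and -3.84 and -3.83 after Thoc5 knockdown. Both knockdowns lay below NT, and the Thoc2 arrays disagreed with each other. It was at 58.3% of NT after Thoc5 knockdown (-0.78 ± 0.27, limma unadjusted p = 0.0388). After Thoc2 knockdown it was at 69.2% (-0.53 ± 0.27, unadjusted p = 0.112).

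The 4 H2B genes with probes that resemble each other had one pattern among them. Hist1h2bk, the brightest H2B probe, read 2.09 and 2.30 in NT cells, 1.29 and 1.63 after Thoc2 knockdown, and 2.07 and 1.85 after Thoc5 knockdown. Hist3h2bb read 2.09 and 2.06, then 0.60 and 1.42, then 1.86 and 1.84, in the same order of groups. In both genes the Thoc2 arrays were lowest and Thoc2 replicate 1 was the lowest of all. Relative to NT after Thoc2 knockdown, Hist1h2bk was at 60.2%, Hist1h2bm at 64.2%, Hist1h2ba at 61.1% and Hist3h2bb at 47.6%. After Thoc5 knockdown the 4 were at 82.98% to 87.1%. Hist1h2ba is known as the testis H2B, and its level here was 1.21 and 0.91 in NT cells, 0.13 and 0.56 after Thoc2 knockdown, and 1.05 and 0.66 after Thoc5 knockdown. Hist1h2bm read 2.16 and 2.16, then 1.39 and 1.65, then 2.05 and 1.73.

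**Figure D2:**
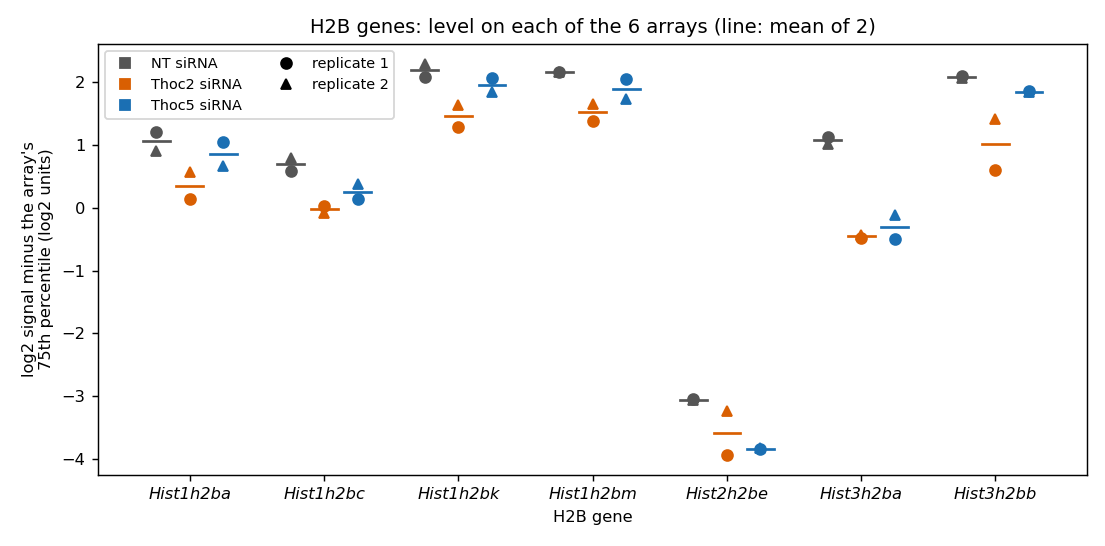
Level of the 7 tested H2B genes on each array, as log2 signal minus the 75th percentile of the array; circles are replicate 1, triangles replicate 2 and lines the mean of 2. For each gene both Thoc2 arrays (orange) lie below both NT arrays (grey), and Thoc5 arrays (blue) overlap NT in Hist1h2ba only.

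H2A genes were lower after Thoc2 knockdown in 8 of 9, with a median of -0.30, and after Thoc5 knockdown in 7 of 9, with a median of -0.21. An unadjusted p under 0.05 was reached by 2 of 9 after Thoc2 knockdown (22.2%, against 14.5% of all genes) and 1 of 9 after Thoc5 knockdown (11.1%, against 19.4%). The medians were below 0 under each scaling and background correction run but rested on single arrays. Without Thoc2 replicate 1 the Thoc2 median was -0.03 with 6 of 9 below 0, and without Thoc2 replicate 2 it was -0.47. The Thoc5 median was -0.45 without Thoc5 replicate 1 and 0.02 without Thoc5 replicate 2. Hist1h2ab (chr13:23117325-23117384, plus strand), whose probe ends in the stem-loop, read 2.06 and 2.07 in NT cells, 1.59 and 1.40 after Thoc2 knockdown, and 1.18 and 1.34 after Thoc5 knockdown. The 3 groups did not overlap, with NT highest and Thoc5 siRNA lowest. It was at 67.3% of NT after Thoc2 knockdown (-0.57 ± 0.16, limma unadjusted p = 0.0173) and 57.2% after Thoc5 knockdown (-0.81 ± 0.16, unadjusted p = 0.00476, adjusted p = 0.12). With an intensity trend and robust variances the latter had an adjusted p of 0.0384.

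Hist1h2ae (chr13:22936613-22936672, minus strand), whose probe begins within the stem-loop, separated the knockdowns. It read -1.31 and -1.12 in NT cells, -2.01 and -1.94 after Thoc2 knockdown, and -1.20 and -1.17 after Thoc5 knockdown. Only the Thoc2 arrays were low, and the Thoc5 arrays lay between the NT arrays. It was at 59.2% of NT after Thoc2 knockdown (-0.76 ± 0.15, limma unadjusted p = 0.005, adjusted p = 0.227) and at 102.3% after Thoc5 knockdown (0.03 ± 0.15). The direct difference of Thoc5 from Thoc2 siRNA was 0.79 ± 0.15 (limma unadjusted p = 0.00423, adjusted p = 0.451). Of the 60 letters of this probe, 48 lie 3′ of the stem-loop. Whether its values give the level of the cut Hist1h2ae mRNA was not tested. That limit also holds where the gene enters the counts of H2A and of all histone genes.

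The brightest H2A probe, that of Hist1h2aa, read 8.75 and 8.67 in NT cells, 8.20 and 8.61 after Thoc2 knockdown, and 8.88 and 8.25 after Thoc5 knockdown. The Thoc5 arrays lay on both sides of NT. Its differences were -0.30 ± 0.28 and -0.14 ± 0.28, each about the size of its SE or less. The other 6 H2A genes lay between -0.39 and 0.00 after Thoc2 knockdown and between -0.51 and 0.03 after Thoc5 knockdown, with limma unadjusted p from 0.132 to 0.993.

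H1 genes had no common direction. After Thoc2 knockdown 4 of 6 were below 0 (median -0.10) and 0 had an unadjusted p under 0.05; after Thoc5 knockdown 3 of 6 were below 0 (median -0.06) and 2 had an unadjusted p under 0.05, both higher (33.3%, against 19.4% of all genes). The Thoc2 median turned to 0.15 without NT replicate 1, 0.01 without Thoc2 replicate 2 and 0.07 with outlier spots kept. The Thoc5 median turned to 0.17 under normexp, 0.03 under median scaling, 0.04 within the shared slide, 0.05 without Thoc5 replicate 1 and 0.02 without Thoc2 replicate 2, and was at 0 without NT replicate 2. Hist1h1d (chr13:22921576-22921635, plus strand) encodes a somatic linker histone and read -0.61 and -1.01 in NT cells, -0.58 and -0.40 after Thoc2 knockdown, and 0.65 and 0.15 after Thoc5 knockdown. The Thoc5 arrays were above all others. It was at 231.2% of NT after Thoc5 knockdown (1.21 ± 0.26, limma unadjusted p = 0.00699, adjusted p = 0.13) and at 124.5% after Thoc2 knockdown (0.32 ± 0.26, unadjusted p = 0.279). A dimmer second probe of the gene, above background on 4 of 6 arrays, lies further 3′ (chr13:22923327-22923386, plus strand). It went the other way, with differences of -0.81 for Thoc2 siRNA and -0.82 for Thoc5 siRNA. Whether it reads the same mRNA was not tested, so the direction rests on the brightest probe.

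Hist1h1a, another somatic H1 gene, read -0.17 and -0.43 in NT cells, -0.09 and -0.14 after Thoc2 knockdown, and 0.38 and 0.21 after Thoc5 knockdown. The Thoc5 arrays were again above all others, at 151% of NT (0.59 ± 0.17, limma unadjusted p = 0.0198, adjusted p = 0.177). Hist1h1e, the brightest H1 probe, read 2.36 and 2.10 in NT cells, 2.23 and 1.92 after Thoc2 knockdown, and 1.995 and 2.19 after Thoc5 knockdown; the 3 groups overlapped. Hist1h1c, the H1 gene with the smallest p for Thoc2 siRNA, read -0.30 and 0.19 in NT cells, -0.28 and -0.56 after Thoc2 knockdown, and -0.16 and 0.08 after Thoc5 knockdown. These groups overlapped too (-0.36 ± 0.24, unadjusted p = 0.206). The fit of Hist1h1t, a testis H1 gene, used 5 arrays, because its spot on Thoc2 replicate 1 had an outlier flag.

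Of the 3 H3 genes, Hist1h3a (chr13:23127689-23127748, minus strand), the one whose probe holds the whole stem-loop, stood lower after Thoc2 knockdown. It read -0.62 and -0.63 in NT cells, -1.37 and -0.995 after Thoc2 knockdown, and -0.51 and -0.98 after Thoc5 knockdown. Both Thoc2 arrays were below NT, at 68.1% (-0.55 ± 0.24, limma unadjusted p = 0.0733), and the Thoc5 arrays overlapped NT. Over the 3 genes with a stem-loop on the probe, 3 were below 0 after Thoc2 knockdown and 2 after Thoc5 knockdown.

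The other two H3 probes each list 4 transcripts and read near or above NT. Hist2h3c1, the brightest H3 probe, read 6.51 and 6.78 in NT cells, 6.68 and 6.79 after Thoc2 knockdown, and 7.04 and 6.76 after Thoc5 knockdown. Hist1h3d read 5.90 and 5.98, then 6.06 and 6.01, then 6.23 and 6.09. The groups overlapped for Hist2h3c1; for Hist1h3d both knockdowns were above NT, by 0.10 ± 0.14 and 0.22 ± 0.14. Under normexp both genes turned below 0 in both comparisons, and under median scaling they did after Thoc2 knockdown.

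H4 genes were below 0 in 5 of 6 after Thoc2 knockdown (median -0.24) and in 4 of 6 after Thoc5 knockdown (median -0.22), and 0 had an unadjusted p under 0.05 in either, where 14.5% and 19.4% of all genes did. Both medians stayed below 0 under every setting run, but the Thoc2 median was -0.08 with 4 of 6 below 0 without NT replicate 1 and -0.15 without Thoc2 replicate 1. The Thoc5 median was -0.11 without NT replicate 1, -0.37 without NT replicate 2 and -0.10 without Thoc5 replicate 2. Hist1h4f, the brightest H4 probe, read 5.90 and 5.63 in NT cells, 5.52 and 5.43 after Thoc2 knockdown, and 5.44 and 5.12 after Thoc5 knockdown. All knockdown arrays were below NT, at 81.7% and 71.5% (-0.29 ± 0.19 and -0.48 ± 0.19). Hist1h4i read 1.43 and 2.28 in NT cells, 0.98 and 1.32 after Thoc2 knockdown, and 1.94 and 1.89 after Thoc5 knockdown. Its NT arrays differed by more than the groups did.

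Hist1h4d, named after its values were seen, shows how much 1 array can set. It read 5.27 and 5.02 in NT cells, 3.01 and 4.99 after Thoc2 knockdown, and 4.95 and 4.83 after Thoc5 knockdown. Only Thoc2 replicate 1 was low, and the difference of -1.15 had an SE of 0.68 (limma unadjusted p = 0.159). On that array the overlapping Hist1h4f probe gave 5.52, close to Thoc2 replicate 2 at 5.43, and a second Hist1h4d probe differed from NT by -0.20 after Thoc2 knockdown.

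For genes with several probes above background on all arrays, the probes were set side by side. Hist3h2a, the only H2A gene of the Hist3 cluster, differed by -0.17 and -0.21 from NT on its brightest probe, which lies in the coding region. That probe (chr11:59036430-59036489, plus strand) is shown for comparison with the probes of other H2A genes, since the design lists it for 1 transcript only.
Hist3h2a: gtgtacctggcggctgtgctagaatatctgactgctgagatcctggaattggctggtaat

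A second probe further 3′ (chr11:59036997-59037056, plus strand) read 1.05 and 1.21 in NT cells, 0.14 and 0.12 after Thoc2 knockdown, and 0.20 and 0.33 after Thoc5 knockdown. All 4 knockdown arrays were below NT there, at 50.1% after Thoc2 knockdown and 54.97% after Thoc5 knockdown. That second probe has a stop codon in every frame. Whether it lies on an mRNA cut after the stem-loop was not tested, so it is no check of the coding-region probe. The remaining Hist3h2a probe, on the opposite strand, differed by 0.58 after Thoc2 knockdown and 0.21 after Thoc5 knockdown. For Hist1h2bk a second probe gave -0.42 after Thoc2 knockdown and 0.17 after Thoc5 knockdown, against -0.73 and -0.24 on the brightest. For Hist1h2af the second probe gave -0.24 and -0.31, against -0.08 and 0.03.

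**Figure D3:**
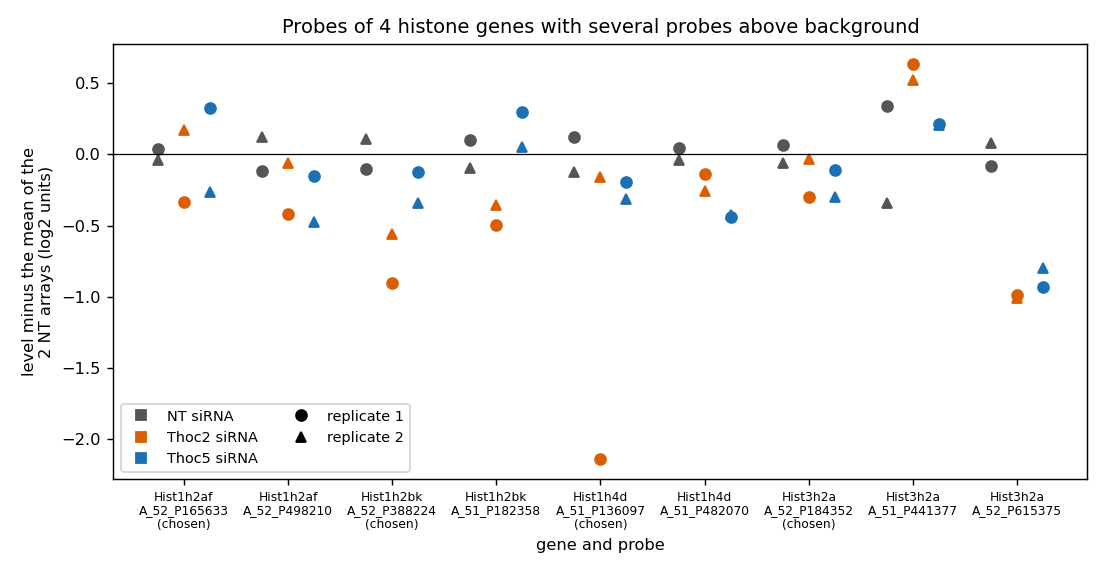
Level of each probe relative to the mean of the 2 NT arrays (log2 units) for the 4 histone genes with more than 1 probe above background on all arrays; circles are replicate 1, triangles replicate 2, and the brightest probe is marked as chosen. The Hist3h2a probe on the far right lies below 0 on all 4 knockdown arrays, further than the chosen probe (mean differences of -0.17 and -0.21), and the single low point of Hist1h4d is Thoc2 replicate 1.

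Probes listed for more than 1 transcript, called shared here, were compared with those listed for 1 or none. The split counts transcripts and not genes. The Hist3h2bb probe counts as shared although its matched transcripts belong to 1 current gene. Those of Hist1h2aa, Hist1h2ba, Hist1h2ak and Hist2h4 do not, although they resemble other histone probes. After Thoc2 knockdown 8 of 12 shared probes were below 0 (median -0.33), 3 with an unadjusted p under 0.05, all of them H2B; 17 of the 19 probes with 1 transcript or none were below 0 (median -0.36), 5 with an unadjusted p under 0.05. After Thoc5 knockdown 8 of 12 shared probes were below 0, 0 with an unadjusted p under 0.05; of the other 19, 14 were below 0 and 5 had one. By cluster, 3 of 3 Hist3 genes were below 0 in both comparisons, 18 and 14 of 22 Hist1 genes, and 3 and 4 of 5 Hist2 genes.

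The 3 genes that failed the filter were Hist1h2ac and Hist1h2be, above background on 0 of 6 arrays, and Hist2h2aa2, above background on 1. No difference is given for them. All 31 that passed were above background on all 6 arrays, so none passed through 1 group alone.

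Set directly against each other, Thoc5 siRNA gave higher levels than Thoc2 siRNA in 21 of 31 histone genes, but when Thoc5 replicate 1 was left out 15 of 31 were below 0 and the median was 0.03. Of 31 genes, 10 were below 0 (32.3%), against 64.9% of all genes, and the median was 0.15, against -0.13. At an unadjusted p under 0.05, 3 of 31 (9.68%) differed, all higher after Thoc5 knockdown, where 9.15% of all genes differed, 6.96% lower and 2.19% higher. They were Hist1h2ae, given above, Hist1h1d (0.89 ± 0.26, limma unadjusted p = 0.0212) and Hist3h2bb (0.84 ± 0.30, unadjusted p = 0.0431), and the smallest adjusted p was 0.451. The groups did not overlap for 12 higher and 3 lower genes, where 13% and 32% of all genes did so. Of the 7 H2B genes, 6 were higher after Thoc5 knockdown, with a median of 0.37.

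The 2 doubtful arrays bear on these counts. Without Thoc2 replicate 1, 24 of 31 histone genes were below 0 after Thoc2 knockdown, the median was -0.18 and 5 had an unadjusted p under 0.05. That count was 5 without NT replicate 1 and 3 without NT replicate 2. For Thoc5 siRNA, the median was -0.34 without Thoc5 replicate 1, -0.08 without Thoc5 replicate 2 and -0.11 without NT replicate 1. Without Thoc5 replicate 2 the genes were not lower than the rest of the array, since their median was 0.05 above that of all genes. For Thoc5 against Thoc2 siRNA, 1 gene had an unadjusted p under 0.05 without Thoc5 replicate 1 and 2 did without Thoc2 replicate 1.

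Slides split the arrays further. NT replicate 1 and Thoc2 replicate 2 shared a slide, as did NT replicate 2 and Thoc5 replicate 2. Within these slides the median difference of the histone genes was -0.27 for Thoc2 siRNA and -0.24 for Thoc5 siRNA, and that of H2B was -0.64 and -0.43. With slide as a random block the medians over all histone genes were -0.34 and -0.18, with 8 and 7 genes at an unadjusted p under 0.05. Thoc5 was set against Thoc2 siRNA on no shared slide. Scaling moved the balance of all genes: of those with an unadjusted p under 0.05 for Thoc2 siRNA, 44.8% were lower as scaled here, 60.7% after quantile normalization and 79.6% after median scaling. The histone genes at that p were lower after Thoc2 knockdown in 8 of 8, 9 of 9 and 9 of 9 of these. Relative to the median of all genes the histone median was -0.42, -0.31 and -0.42.

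Genes that make and process histone mRNA showed no common shift as scaled here, while under normexp their medians were -0.32 and -0.33. Under median scaling their Thoc2 median was -0.33, where that of all genes was -0.24. Of 25 such genes 24 were tested; 13 were below 0 after Thoc2 knockdown (median -0.03) and 12 after Thoc5 knockdown (median 0.02). At an unadjusted p under 0.05, 2 were lower after Thoc2 knockdown (8.33%, against 14.5% of all genes) and 2 lower and 2 higher after Thoc5 knockdown (16.7%, against 19.4%), both shares below that of all genes. Slbp, the stem-loop binding protein, read 4.87 and 4.73 in NT cells, 4.70 and 4.66 after Thoc2 knockdown, and 4.505 and 4.51 after Thoc5 knockdown. Its knockdown arrays were all below NT, at 92.3% (-0.12 ± 0.14) and 81.95% (-0.29 ± 0.14, limma unadjusted p = 0.101).

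The members of that list with the smallest p included Sm proteins and a cleavage factor. Snrpd3, an Sm protein shared by the U7 and the spliceosomal particles, was at 55.9% after Thoc2 knockdown (-0.84 ± 0.13, limma adjusted p = 0.219) and 41.6% after Thoc5 knockdown (-1.27 ± 0.13, adjusted p = 0.101); the latter was called in the fit restricted to genes above background on all arrays (adjusted p = 0.0374). Cpsf2, a subunit of the cleavage complex, was at 60.8% after Thoc2 knockdown, and Snrpe, another Sm protein, at 62.6% after Thoc5 knockdown. Higher after Thoc5 knockdown were Zcchc6, which adds uridines to RNA ends, at 169%, and Ncbp2, the small cap-binding subunit, at 143.9%.

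Histone variants outside the clusters, whose mRNAs are in the main polyadenylated, leaned the same way as the cluster genes, except within the shared slide for Thoc5 siRNA (median 0.01). Of 15 variants 13 were tested; 12 were below 0 after Thoc2 knockdown (median -0.24) and 11 after Thoc5 knockdown (median -0.18), against 44.3% and 56.8% of all genes. At an unadjusted p under 0.05, 2 were lower after Thoc2 knockdown (15.4%, against 14.5% of all genes), and 3 lower and 1 higher after Thoc5 knockdown (30.8%, against 19.4%). The Thoc2 median was -0.10 without Thoc2 replicate 1, and the Thoc5 median was -0.08 without Thoc5 replicate 1 and -0.09 without NT replicate 1. It was -0.38 without NT replicate 2 and -0.37 without Thoc5 replicate 2. H1f0, a linker variant of resting cells, was at 43.3% and 55.2%, and H3f3a, which encodes H3.3, at 69.4% and 73.2%. H2afx, the variant phosphorylated at DNA breaks, was at 52.4% after Thoc5 knockdown, and H1foo, an oocyte linker histone, at 153.1%.

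Histone chaperones, which carry histones to DNA, were spread on both sides. All 20 were tested, and 8 were below 0 in each comparison, with medians of 0.12 and 0.18 that turned to -0.07 and -0.01 under normexp and, for Thoc2 siRNA, to -0.18 under median scaling. In each comparison 2 were lower and 2 higher at an unadjusted p under 0.05 (20%, against 14.5% and 19.4% of all genes). Atrx, a chromatin remodeller that deposits H3.3 together with Daxx, was at 282.3% of NT after Thoc2 knockdown (1.497 ± 0.22, limma adjusted p = 0.211) and 347% after Thoc5 knockdown (1.79 ± 0.22, adjusted p = 0.101; 0.0387 among genes above background on all arrays). Daxx was at 130.7% and 135.4%. Rbbp7, a histone-binding subunit of several complexes, was at 68.3% and 69.4%, and Nap1l1, a carrier of H2A and H2B, at 73.4% and 73.2%.

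S phase genes, which mark the stage at which cluster genes are transcribed, differed little as a list as scaled here, and under normexp their medians were -0.28 and -0.34. Under median scaling their Thoc2 median was -0.33, where that of all genes was -0.24. All 28 were tested; 16 were below 0 after Thoc2 knockdown (median -0.03) and 18 after Thoc5 knockdown (median -0.13). At an unadjusted p under 0.05, 2 were lower after Thoc2 knockdown (7.14%, against 14.5% of all genes), and 5 were lower and 1 higher after Thoc5 knockdown (21.4%, against 19.4%). The first share was below that of all genes and the second near it. After Thoc2 knockdown the groups did not overlap for 8 lower and 8 higher genes, where 20.6% and 25.6% of all genes did so. After Thoc5 knockdown they did not overlap for 13 lower and 7 higher genes, where 31.1% and 21.6% of all genes did so. Ccna2, the S phase cyclin, was at 64.0% and 71.96%. Pola1, the catalytic subunit of DNA polymerase alpha, was at 66.8% and 50.96%; Rfc4, of the clamp loader, was at 63.1% after Thoc5 knockdown, and Mcm4, of the replicative helicase, at 67.6%. The part of cell cycle stage in the histone values was not tested.

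**Figure D4:**
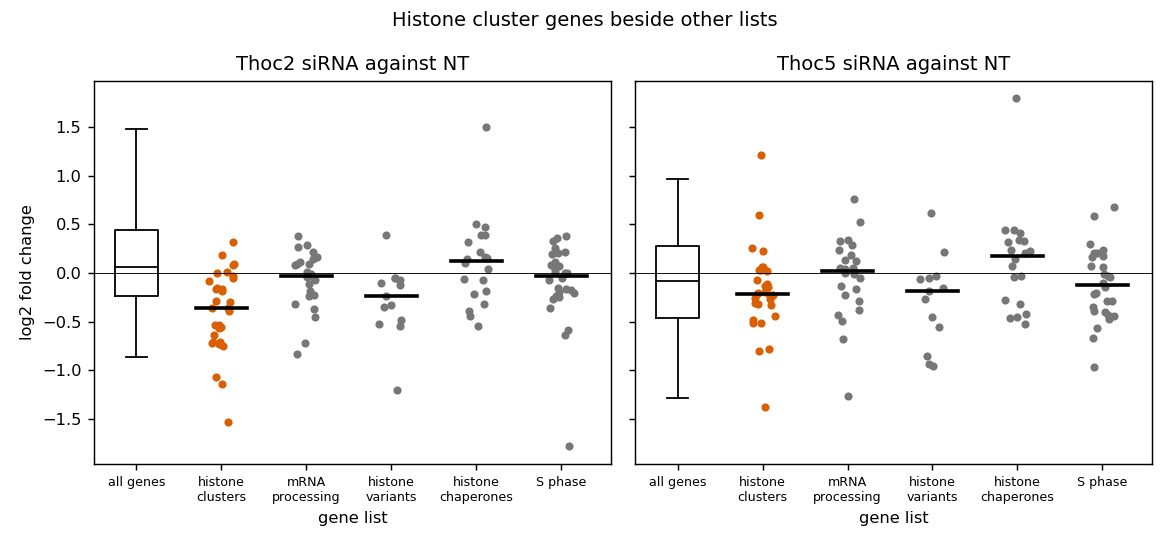
Log2 difference from NT for the 31 histone cluster genes (orange points) and 4 other lists (grey points), with list medians as lines, beside all genes tested (box, quartiles; whiskers, 5th to 95th percentile). Cluster genes and histone variants have medians below 0 in both panels (-0.36 and -0.24 after Thoc2 knockdown), and chaperones have medians above 0 (0.12 and 0.18), which turned below 0 under normexp in both comparisons and under median scaling for Thoc2 siRNA.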

How the data were processed

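Feature Extraction output of 6 single-colour arrays was used. Per the file headers, the deposited processed signal is an intensity from which background was subtracted and spatial trends of the array removed; mean and local background intensity served the normexp alternative (offset 50). The headers name Feature Extraction version 9.5.3.1, the submitters' processing notes 11.0. A deposited table of the series holds log2 values with equal medians (5.82) that rank as the processed signal does (Spearman 1); its direction follows from that, and how it was scaled is not given in the sources used here.

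For levels, the 75th percentile of an array was subtracted from its log2 processed signals. Control and outlier-flagged spots were left out and spots of a probe averaged. A gene, by its name in the files, is its brightest probe, kept if well above background (at least 0.5 of its spots) on every array of at least 1 group. Groups were compared in R 4.3.3 with limma 3.58.1 and the package data.table (version 1.17.8) (lmFit, eBayes, 6 arrays, 3 residual and 1.49 prior degrees of freedom), two-sided, with Benjamini-Hochberg adjustment over all genes and a threshold of 0.05. The number of arrays limits the precision. The fit was tested on simulated data for Thoc2 siRNA against NT. There, 4.4% of genes with a log2 change of 1 were called, and 44.8% of those with a change of 2. With no change, 0.0301% were called. A gene not called may thus still have changed by such an amount. Sequences and coordinates (build mm7) are those of the deposited files, and transcripts were named from RefSeq on assembly GRCm38.p6 without its coordinates. Probe sequences were searched on both strands in Python 3.11.15.

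The genes given with all 6 levels were the brightest and the smallest-p gene of each class and those with an unadjusted p under 0.05 against NT; from other lists, up to 4 of the latter per comparison, and Slbp. The members, lists and rules were chosen with earlier results of these data known. Alternatives covered background correction, scaling, filter, variance model, slide, replicate number, probes and left-out arrays.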

Additional observations from a re-analysis of the deposited data

How the results depend on the processing

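The histone counts were small and moved with single arrays. No gene was called for Thoc2 siRNA except 3 with an intensity trend and robust variances, none of them a histone gene. For Thoc5 siRNA, 511 genes and 1 histone gene (Hist3h2ba) were called among genes above background on all arrays, and 662 and 2 (with Hist1h2ab) with the trend. No gene was called for Thoc5 against Thoc2 siRNA in any setting. The cause of these shifts was not tested.

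The remaining values concern histone genes at an unadjusted p under 0.05 and median log2 differences. With normexp the counts were 4, 3 and 1 for Thoc2, Thoc5 and their direct comparison, against 8, 5 and 3, and the H2B medians -0.97 and -0.54; all genes then had medians of 0.30 and 0.25. With median scaling the counts were 3 for Thoc5 siRNA and 7 for the direct comparison, and medians were -0.66 (all histone genes) and -1.02 (H2B) for Thoc2 siRNA and 0.54 for the direct comparison, where all genes were at -0.24 and 0.26. The direct comparison gave 5 among genes above background on all arrays and 6 with the trend. The H2B count for Thoc5 siRNA was 1, against 2, with normexp, quantile, cyclic loess and median scaling, the series table and no filter; within the shared slide the H2B median was -0.43.

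Leaving out 1 array gave 3 to 8 histone genes for Thoc2 siRNA, 3 to 5 for Thoc5 siRNA and 1 to 4 for the direct comparison. The Thoc2 medians ran from -0.47 to -0.18 (all histone genes) and from -0.90 to -0.56 (H2B, with 2 to 6 genes). The H2B count for Thoc5 siRNA was 1 to 2.

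Signs of single genes turned in some settings. With normexp, Thoc2 siRNA gave Hist2h3c1 -0.37, Hist1h3d -0.43, Hist1h1a -0.033, Hist2h2be 0.59 and Daxx -0.0061, and Thoc5 siRNA gave Hist1h1c -0.03, Hist2h3c1 -0.12, Hist1h3d -0.21, Hist1h4i -0.29 and Hist2h2be 0.33. Cyclic loess gave Hist1h2aa 0.0017 for Thoc5 siRNA. Median scaling gave Hist2h3c1 -0.22, Hist1h3d -0.21 and Hist1h1a -0.12 for Thoc2 siRNA. Slide as a random block gave Hist1h1c -0.014 for Thoc5 siRNA, and the mean of all probes gave Hist1h1d -0.24 for Thoc2 siRNA. Leaving out 1 array, the value ran from -0.052 to 0.22 for Hist2h3c1 and from -0.31 to 0.0033 for Hist1h1e after Thoc2 siRNA. After Thoc5 siRNA it ran from -0.22 to 0.27 for Hist1h1c, from -0.063 to 0.13 for Hist1h2ae, from -0.36 to 0.49 for Hist1h4i, from -0.45 to 0.17 for Hist1h2aa and from -0.35 to 0.11 for Hist1h3a.

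Whether replicate numbers pair the arrays could not be decided. Deviations of same-numbered arrays correlated at -0.20, 0.14 and 0.22 for NT with Thoc2, NT with Thoc5 and Thoc2 with Thoc5. Same-numbered arrays mostly lay on different slides and differed in quality, so these correlations cannot separate pairing from slide and array effects. With the replicate number as a block, 6 histone genes (4 H2B) had an unadjusted p under 0.05 for Thoc2 siRNA, 5 for Thoc5 siRNA and 2 for the direct comparison, with medians of -0.30 and -0.22 for the comparisons with NT.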
